A study of Saccharomyces cerevisiae with 6 samples.

Results

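The fragments described are the nucleosome DNA inserts of 160 bp or more in a library of yeast minichromosomes. They were chosen by length (end minus start in the deposited lists), by position (at least 30 kb from a chromosome end and outside the rDNA cluster and the windows of the abundant LPX1 and CAR2 inserts) and by reads (at least 10 over the 2 sequencing runs in each gel section). This gave 780 fragments, of 9277 fragments of any length and origin with 10 reads in each section. In Topo-seq, mono-nucleosome DNA released by micrococcal nuclease from Saccharomyces cerevisiae FY251 (MATa, auxotrophic through his3-∆200 and leu2-D1 as well as trp1-∆63 and ura3-52) was ligated to adaptors, inserted in the circular minichromosome YCp1.3 and returned to FY251 cells, whose transformed colonies were pooled. Topo-seq-A is the DNA eluted from the upper section of a gel cut at the mean linking number (Lk) of the pooled circles, Topo-seq-B is the DNA of the lower section, and NucLib is the library before the gel. All 3 samples share the strain, the minichromosome and the colonies, with no other treatment. One gel was cut, and each sample was sequenced in 2 runs, so the spread between runs is technical. The lists summed to 851697 to 2073823 reads per run, of which the 780 fragments held 6.45% and 6.53% in NucLib, 4.31% and 4.24% in section A and 4.25% and 4.30% in section B.

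The linking number counts how often the strands of a closed DNA circle wind around each other. A nucleosome wraps DNA in left-handed superhelical turns around a histone octamer and so restrains a negative linking number difference (∆Lk). Circles with a more negative ∆Lk ran ahead into section B, and circles with a less negative ∆Lk were retained in section A. Micrococcal nuclease trims the linker DNA between nucleosomes, so a fragment longer than a nucleosome core keeps linker DNA at one end or both. The A/B ratio given here is the share of a fragment in the reads of section A over its share in section B, on the log2 scale with 0.5 reads added to each, so that values above 0 mean a larger share in section A. The position of the histone core within each insert was not measured, and the lists do not give the orientation of an insert in the minichromosome.

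The inserts with the most unequal partition show what was sequenced. The following 4 had the highest A/B as fitted by edgeR, which can differ slightly from the ratio of summed runs, among long fragments read 100 times or more in each section, called by the test and on the same side of 0 in each run. They are printed 5′ to 3′ on the + strand of the R64 reference, with runs of at least 5 A or 5 T in capitals.
HKR1 fragment, chrIV:1308281-1308442: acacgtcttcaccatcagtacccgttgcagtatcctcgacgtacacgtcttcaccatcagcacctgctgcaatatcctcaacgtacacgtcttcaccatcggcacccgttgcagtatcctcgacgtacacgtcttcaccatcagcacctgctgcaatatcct
UBP7 fragment, chrIX:48411-48570: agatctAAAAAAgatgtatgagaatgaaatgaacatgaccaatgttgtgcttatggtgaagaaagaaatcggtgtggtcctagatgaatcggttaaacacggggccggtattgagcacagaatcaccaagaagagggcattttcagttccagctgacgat
NAB2 fragment, chrVII:279939-280099: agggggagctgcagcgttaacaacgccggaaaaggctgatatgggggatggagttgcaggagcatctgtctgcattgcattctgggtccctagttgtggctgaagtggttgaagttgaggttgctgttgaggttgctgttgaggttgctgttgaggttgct
ROG3 fragment, chrVI:198400-198562: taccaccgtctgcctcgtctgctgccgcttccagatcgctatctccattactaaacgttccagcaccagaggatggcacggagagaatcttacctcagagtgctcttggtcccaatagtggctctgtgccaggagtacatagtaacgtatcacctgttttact
The following 4 had the lowest fitted A/B under the same rule and are marked in the same way.
TIR1 fragment, chrV:175784-175962: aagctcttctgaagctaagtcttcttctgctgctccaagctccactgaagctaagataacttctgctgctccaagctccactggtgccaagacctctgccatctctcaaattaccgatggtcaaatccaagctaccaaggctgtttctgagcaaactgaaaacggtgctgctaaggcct
RPC37 fragment, chrXI:488419-488598: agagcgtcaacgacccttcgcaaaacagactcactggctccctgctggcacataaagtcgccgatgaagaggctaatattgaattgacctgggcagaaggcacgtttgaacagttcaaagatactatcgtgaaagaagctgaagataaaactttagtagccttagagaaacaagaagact
NUP42 fragment, chrIV:843961-844136: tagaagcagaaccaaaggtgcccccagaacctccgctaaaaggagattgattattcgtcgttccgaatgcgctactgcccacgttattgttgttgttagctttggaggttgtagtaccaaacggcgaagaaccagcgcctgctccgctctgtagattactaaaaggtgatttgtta
FPR3 fragment, chrXIII:120075-120243: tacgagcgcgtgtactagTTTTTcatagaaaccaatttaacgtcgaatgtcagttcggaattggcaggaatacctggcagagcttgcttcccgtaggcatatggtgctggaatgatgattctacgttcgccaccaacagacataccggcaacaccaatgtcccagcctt
All 8 lay inside coding sequence except the FPR3 fragment, which spanned the stop codon. The HKR1 fragment was made of near repeats of a 42-bp unit: 88.3% of its bases equalled the base 42 positions on and 97.4% the base 84 positions on, while no offset gave more than 59.4% in the other 7. A run of 5 or more A or T was present in the UBP7 and FPR3 fragments and in none of the other 6.

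Fragments of the same nucleosome with and without flanking DNA were rare. In 9 cases a core-length fragment (140 to 150 bp) with 10 reads in each section lay wholly inside a long one. For the 4 most-read of these cases among fragments that occur once in the genome, the longer fragment is printed with the bases that it has beyond the inner one in capitals.
NUP42 outer fragment, chrIV:844483-844649: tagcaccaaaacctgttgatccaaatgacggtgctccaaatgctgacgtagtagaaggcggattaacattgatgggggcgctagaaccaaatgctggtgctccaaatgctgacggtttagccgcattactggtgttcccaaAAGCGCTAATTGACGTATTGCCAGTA
FLO5 outer fragment, chrVIII:526294-526481: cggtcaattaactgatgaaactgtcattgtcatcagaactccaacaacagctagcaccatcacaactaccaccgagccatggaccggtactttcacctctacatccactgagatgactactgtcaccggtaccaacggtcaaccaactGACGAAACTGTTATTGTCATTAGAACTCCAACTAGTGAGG
ARA2 outer fragment, chrXIII:351854-352022: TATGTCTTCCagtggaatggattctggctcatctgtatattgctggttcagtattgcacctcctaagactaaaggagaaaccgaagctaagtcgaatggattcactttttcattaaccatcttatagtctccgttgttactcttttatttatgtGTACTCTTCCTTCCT
FAR10 outer fragment, chrXII:614829-614997: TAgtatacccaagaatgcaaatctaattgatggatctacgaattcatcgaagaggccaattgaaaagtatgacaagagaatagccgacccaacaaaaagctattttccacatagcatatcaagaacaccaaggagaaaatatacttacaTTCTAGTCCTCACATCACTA
The longest of the 780 fragments started at the same base as the most abundant of them, in SPT5, and is printed with its additional 40 bases in capitals. It was picked after its values were seen.
SPT5 longest fragment, chrXIII:250508-250718: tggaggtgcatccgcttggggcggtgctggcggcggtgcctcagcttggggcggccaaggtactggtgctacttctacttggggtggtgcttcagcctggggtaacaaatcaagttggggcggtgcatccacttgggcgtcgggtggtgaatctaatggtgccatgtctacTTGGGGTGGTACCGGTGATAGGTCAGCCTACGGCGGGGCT

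Long fragments were partitioned less towards section A than fragments of core length. The median log2 A/B of the 780 long fragments was −0.09 (quartiles −0.53 and 0.28), with −0.08 in run 1 and −0.10 in run 2. The 1476 core-length fragments had a median of 0.60, with 0.60 in run 1 and 0.62 in run 2. The difference, long minus core-length, was −0.69, with −0.68 in run 1 and −0.72 in run 2, which is a 1.61-fold lower A/B. The 1185 short fragments (under 130 bp) lay lower still, with a median of −1.32, and the median of all 9277 fragments was 0.08. An A/B above 0 was found for 347 long fragments (44.5%), 1234 core-length ones (83.6%) and 124 short ones. Between core length and long, 1349 fragments had a median of 0.36.

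Each fragment was tested between the sections with edgeR's quasi-likelihood test over the 4 section libraries, at an adjusted p under 0.05. Of the 780 long fragments, 85 were called higher in section A (10.9%, against 24.3% of all fragments tested) and 142 higher in section B (18.2%, against 21.3%). The core-length fragments had 701 and 49 such calls. The test covers sequencing error of 1 gel and not that of repeated gels. The split of calls followed the scaling, and the LPX1 window alone took 23.8% and 24.0% of section A reads and about 14% of section B reads. With edgeR's TMM factors 61 long fragments were called for section A and 177 for section B, and with totals that leave out the rDNA and the LPX1 and CAR2 windows 166 and 84. The median log2 A/B of all fragments in the fit was 0.08 with list totals, −0.03 with TMM and 0.29 without those windows. The long fragments alone had −0.09, −0.20 and 0.12, so the side of 0 of a group median near 0 follows the scaling, whereas the difference from core-length fragments was −0.69 under each of these scalings.

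**Figure D1:**
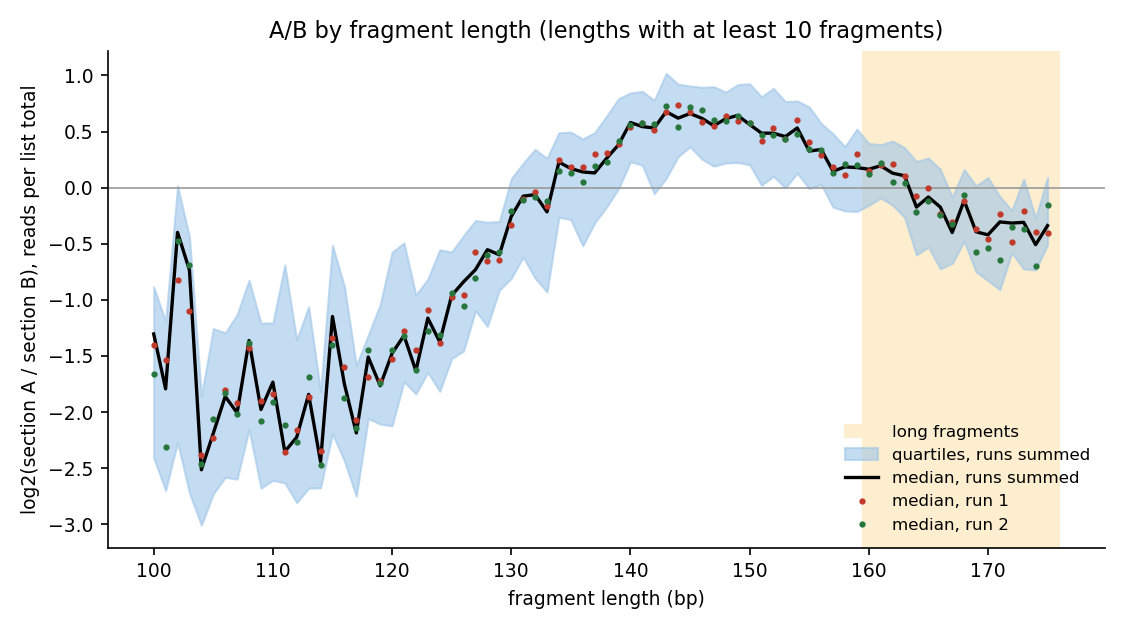
Median log2 A/B (y axis, reads as a share of list totals) against fragment length in bp (x axis), for lengths with at least 10 fragments outside the excluded regions. The line and the band are the median and quartiles with runs summed, the points are the medians of each run, and the shaded lengths are the long fragments, whose medians go from 0.16 at 160 bp to −0.51 at 174 bp and −0.34 at 175 bp, the last length with 10 fragments.

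The A/B ratio of long fragments was lower in longer ones up to 179 bp. Fragments of 160 to 164 bp (n = 413) had a median log2 A/B of 0.12, those of 165 to 169 bp (n = 197) −0.17, those of 170 to 174 bp (n = 96) −0.41 and those of 175 to 179 bp (n = 35) −0.64. In the order of these 4 classes, run 1 gave 0.13, −0.19, −0.37 and −0.69, and run 2 gave 0.08, −0.23, −0.50 and −0.51. The share called higher in section B was 7.02%, 21.8%, 37.5% and 45.7% in the same order, and the share called higher in section A was 16.9%, 6.09%, 2.08% and 2.86%. Beyond these lengths the median fell no further, at −0.63 for 180 to 189 bp (n = 29) and −0.31 for 190 to 211 bp (n = 10). Of these 39 fragments, edgeR called 18 higher in section B and 0 higher in section A (also 0 at an unadjusted p under 0.05, and 8 and 0 by DESeq2). Among all fragments tested, 21.3% were called higher in section B and 24.3% higher in section A. Across the 780 fragments, Spearman's correlation of log2 A/B with length was −0.41, with −0.36 in run 1 and −0.38 in run 2. All of these fragments share the same gel, PCR and libraries, and the correlation is given as a description. Among the 239 with at least 100 reads in each section it was −0.58.

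**Figure D2:**
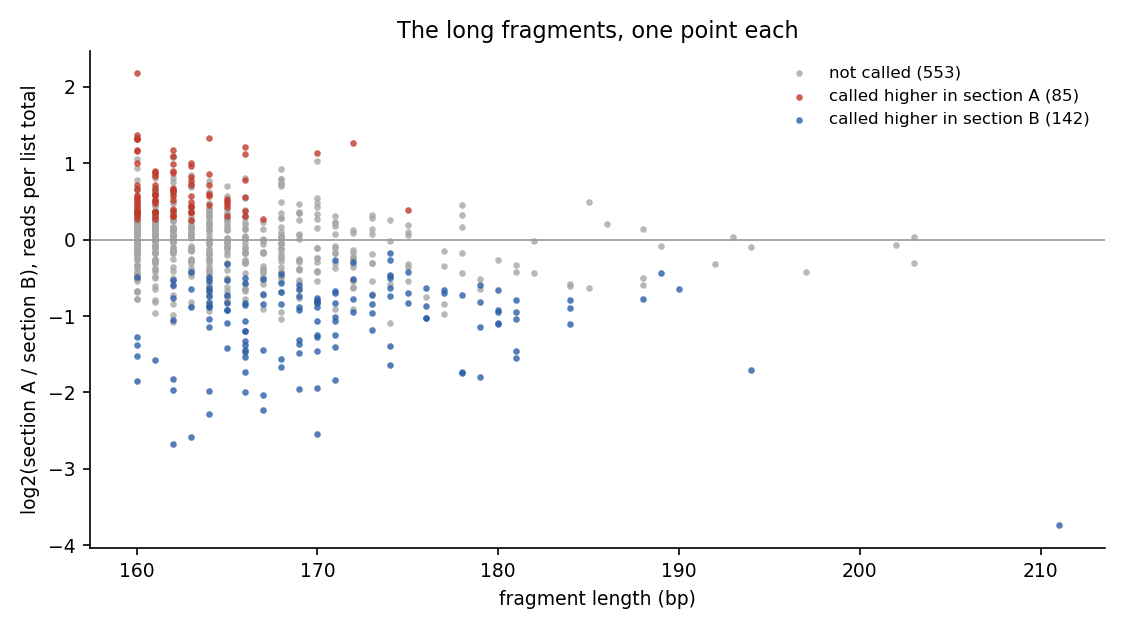
Log2 A/B (y axis, reads as a share of list totals) against fragment length in bp (x axis) for each of the 780 long fragments. Of the points, 85 are called higher in section A, 142 higher in section B and 553 neither, and the calls for section A lie mostly at the short end.

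The change with length was not even. The medians at single lengths stayed between 0.11 and 0.20 from 160 to 163 bp. At 164 bp the median was −0.17 (n = 68), against 0.11 at 163 bp (n = 61). Run 1 gave 0.10 at 163 bp and −0.08 at 164 bp, and run 2 gave 0.04 and −0.22. The quartiles of both lengths overlapped, from −0.26 to 0.36 and from −0.60 to 0.23. A straight line through the mean log2 A/B of the 16 lengths with at least 10 members had a slope of −0.05 per bp. A cosine with the helical repeat of DNA was fitted to what the line left. It took 24.5% of the remaining variance (35.5% in run 1 and 19.8% in run 2), whereas a period of 14 bp, the longest tried, took 35.8%. These 16 lengths span few periods. Over 36 lengths from core length upwards, with a quadratic trend removed, the same cosine took 4.49% (3.25% in run 1 and 6.58% in run 2).

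The lower limit of 160 bp lay on a flat stretch. The 323 fragments of the 3 lengths just below it had a median of 0.16, and the 284 of the first 3 lengths above it also had 0.16. At the read minimum, the 104 long fragments with 10 to 14 reads in the lesser section had a median of −0.52, and the 210 just outside with 5 to 9 reads had −0.17. Of 7097 fragments of 160 bp or more outside the excluded regions in any list, 5985 had fewer than 10 reads in both sections, 137 reached 10 in section A only and 195 in section B only.

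Fragments of equal length still differed widely. Over the 16 lengths with at least 10 members, the SD of log2 A/B within a length had a median of 0.59, against 0.65 over all long fragments. The range within a length had a median of 2.48 on the log2 scale, which is 5.58-fold. The counting error of a single fragment had a median of 0.28 on the same scale. The log2 A/B of run 1 and of run 2 correlated across the 780 fragments with a Spearman's correlation of 0.59, and the sign was equal in the runs for 584. Counting errors cover sampling of reads only, since reads amplified by PCR are not independent molecules and no collapse by molecular identifiers is stated.

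The ∆Lk of each long fragment was computed in the steps of the study, in which the share in section A is turned into a Z-score, multiplied by the SD of the Lk distributions and corrected by subtracting the average over inserts of equal length. Before that subtraction the median was −0.03 Lk units for long fragments and 0.22 for core-length ones, a difference of −0.26. The averages were taken over all fragments tested, those of the rDNA and the chromosome ends included. Subtracting them removes, by construction, the difference by length over all those fragments together. The mean of the long fragments then holds the linear term for length that is added next and their offset from these averages. The resulting ∆Lk had a mean of −1.45 ± 0.23 (SD over 780 fragments), with its lower and upper tails of 5% starting at −1.84 and −1.11. The SD of core-length fragments was 0.24. At rare lengths the subtraction removes most of a fragment's own value, which concerned 9 fragments at lengths with fewer than 5 fragments tested.

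Set against the library before the gel, long fragments took a smaller share of the reads in both sections. All fragments of 160 to 211 bp outside the excluded regions made up 11.1% and 11.1% of the reads outside those regions in NucLib, 9.35% and 9.25% in section A and 7.93% to 8% in section B. In edgeR's fit of all 6 libraries, the median log2 ratio of section A to NucLib was −0.69 for long fragments and −0.38 for core-length ones. That of section B to NucLib was −0.64 for long fragments and −0.99 for core-length ones. Relative to core-length fragments, long ones were thus lower by 0.31 in section A and higher by 0.35 in section B on the log2 scale. Called lower than in NucLib were 52.7% of long fragments in section A, against 30.5% of all fragments tested, and 50.6% in section B, against 38.5%. Both comparisons use the same NucLib libraries, and 6 of the 780 long fragments were listed in neither NucLib run.

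The named fragments at the upper end were close to the lower length limit. HKR1, which encodes a mucin-like sensor of the cell surface, gave a 162-bp fragment with 229 and 207 reads in section A and 74 and 107 in section B. Its log2 A/B was 1.09 (1.14 in run 1 and 1.08 in run 2, adjusted p = 2e-10 by edgeR's quasi-likelihood test). The 2 runs of section A were both above those of section B. A 160-bp fragment of UBP7, a ubiquitin protease gene, had 145 and 103 reads in section A and 43 and 67 in section B. Its log2 A/B was 1.00, with 0.75 in run 2 and a higher value in run 1, and an adjusted p of 2.9e-06 by edgeR. A 161-bp fragment of NAB2, which encodes a protein that binds polyadenylated RNA in the nucleus, had 239 and 176 reads in section A and 104 and 102 in section B. Its log2 A/B was 0.84. ROG3, an arrestin-related gene, gave a 163-bp fragment with 525 and 420 reads in section A and 214 and 259 in section B, and its log2 A/B was 0.82.

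The other 6 of the 10 highest had log2 A/B between 0.59 and 0.71. They came from ERG11 (a demethylase of ergosterol synthesis, 0.71), SDA1 (needed for ribosome assembly, 0.68), CSR2 (arrestin-related, 0.67), VAC7 (a vacuole membrane protein, 0.65), IMG2 (a mitochondrial ribosomal protein, 0.63, across the start codon) and the gap between GRS1 and MRPL36 (0.59). All 10 were 160 to 163 bp long. Without the 100-read rule the highest member was a 160-bp fragment of RBG1, a GTP-binding protein gene, with 21 and 32 reads in section A and 5 and 5 in section B. Its log2 A/B was 2.18, with 1.48 in run 1 and 2.70 in run 2 (adjusted p = 4.2e-05 by edgeR).

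The named fragments at the lower end were longer, from 166 to 181 bp. TIR1, a cell wall mannoprotein gene, gave a 179-bp fragment with reads of 133 and 107 in section A, 196 and 273 in section B and 111 and 258 in NucLib. Its log2 A/B was −1.14 (−1.04 in run 1 and −1.21 in run 2, adjusted p = 2.7e-12 by edgeR). A 180-bp fragment of RPC37, a subunit of RNA polymerase III, had 69 and 54 reads in section A and 103 and 133 in section B, a log2 A/B of −1.11. NUP42, a nucleoporin gene, gave a 176-bp fragment with 148 reads over both runs of section A and 268 over those of section B, a log2 A/B of −1.03 (−0.94 in run 1 and −1.15 in run 2). FPR3, which encodes a nucleolar prolyl isomerase, gave a 169-bp fragment with 165 reads over both runs of section A and 277 over those of section B, a log2 A/B of −0.92 (−1.01 in run 1 and −0.83 in run 2). As list totals of section A and section B differ, the ratio does not equal that of the reads.

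The other 6 of the 10 lowest by fitted A/B lay between −0.93 and −0.78 in the ratio of summed runs, RPL17B being slightly below FPR3 on that scale. They came from RPL17B (a protein of the large ribosomal subunit, −0.93), FAR10 (pheromone arrest, −0.89), YSP2 (sterol transfer, −0.84), YOR342C (−0.83), RIB1 (riboflavin synthesis, −0.79) and PRP22 (a splicing helicase, −0.78). The PRP22 fragment was among the most abundant long inserts, with 2969 and 2464 reads in section A and 3668 and 4583 in section B. Its runs differed little, at −0.79 and −0.76. Of the 239 long fragments with 100 reads in each section, 56 were called higher in section A and 44 higher in section B by edgeR. These counts are near the shares over all fragments tested, 24.3% for section A and 21.3% for section B.

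**Figure D3:**
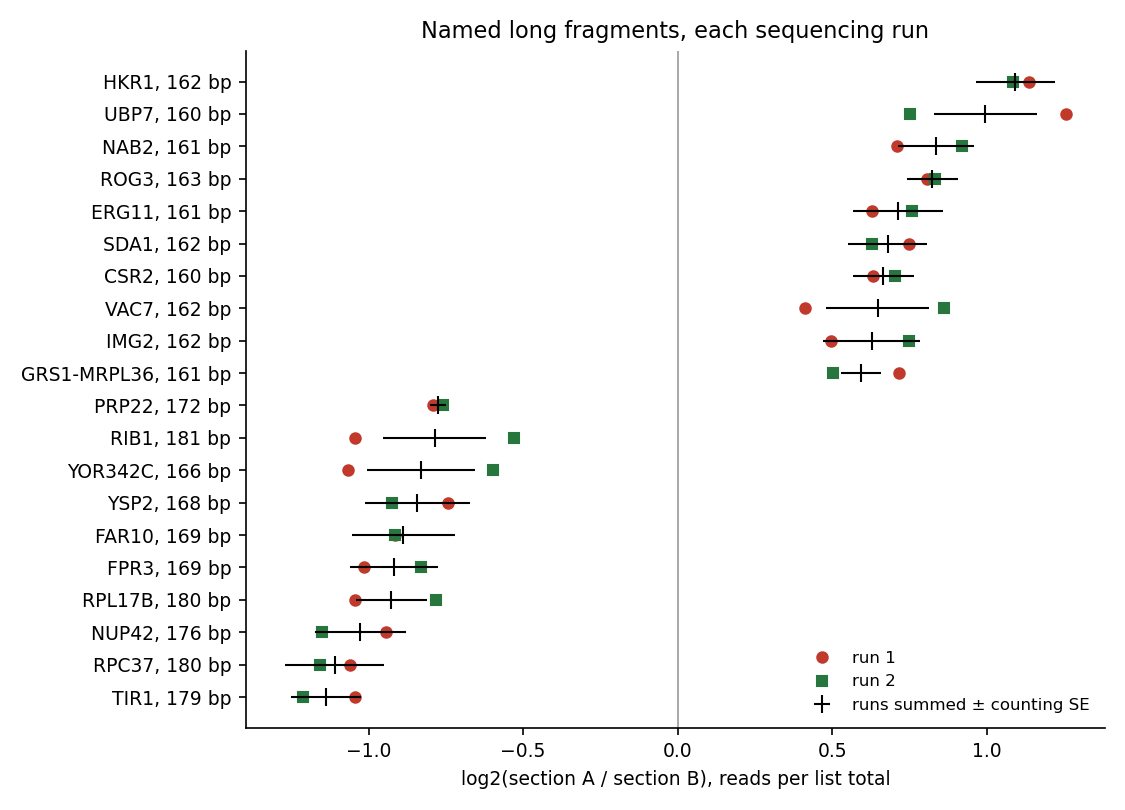
Log2 A/B (x axis, reads as a share of list totals) of the 10 highest and 10 lowest long fragments read 100 times or more in each section, named by gene and length (y axis). Circles are run 1, squares run 2 and ticks the summed runs with the counting standard error. The highest are 160 to 163 bp long and the lowest 166 to 181 bp. Equal sides of 0 in both runs were a condition for being chosen.

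Apart from PRP22, the most abundant long inserts did not lie at either end. Of the 5 with most NucLib reads, the first came from SPT5 (a transcription elongation factor gene, 171 bp), with section A reads of 8748 and 6963, section B reads of 7268 and 9474 and a log2 A/B of −0.26. The third, from ABZ1 (aminobenzoate synthesis, 165 bp), had section A reads of 4520 and 3656, section B reads of 2224 and 2787 and a log2 A/B of 0.53. A 175-bp fragment of SRC1 (an inner nuclear membrane protein) had 818 and 633 reads in section A and 448 and 535 in section B. With a log2 A/B of 0.39 it lay well above the median of its length, −0.34. Its share of the reads was higher in NucLib, at 1171 and 2468 reads, than in either section. The CWC21 fragment (a splicing factor gene, 174 bp) had a log2 A/B of −0.17.

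By base composition, long fragments resembled core-length ones. Their GC content was 41.4% ± 6.15 (SD, n = 780), against 41.3% ± 5.48 (n = 1476) for core-length fragments and 38.2% for windows of 164 bp over the genome. A run of at least 5 A or 5 T on the printed strand, which is a run of T or A on the other, was found in 49.5% of long fragments, 39.4% of the shorter core-length ones and 61.2% of 221821 genome windows of 164 bp. The bases of long fragments beyond a central core length, taken equally from both ends, had a mean GC content of 41.1%, against 41.5% in the centre. The outer bases were poorer in GC than the centre in 401 fragments and richer in 377.

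A/B varied only weakly with GC content. Spearman's correlation of log2 A/B with GC content was 0.07 among long fragments, with 0.05 in run 1 and 0.08 in run 2, and 0.10 among core-length ones. The 260 long fragments poorest in GC (up to 38.3%) had a median log2 A/B of −0.25, the next 260 −0.02 and the richest 260 (from 42.9%) −0.02. In run 1 these medians were −0.17, 0.04 and −0.05, and in run 2 −0.28, 0.00 and −0.05. All 3 groups had a median length of 164 bp. Within lengths of 165 to 169 bp the GC-poor group had −0.53, against −0.07 and −0.16 in the others. The same order of the GC-poor group against the rest was seen in core-length fragments, at 0.51 against 0.64 and 0.67, and a difference between the classes of length was not tested.

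**Figure D4:**
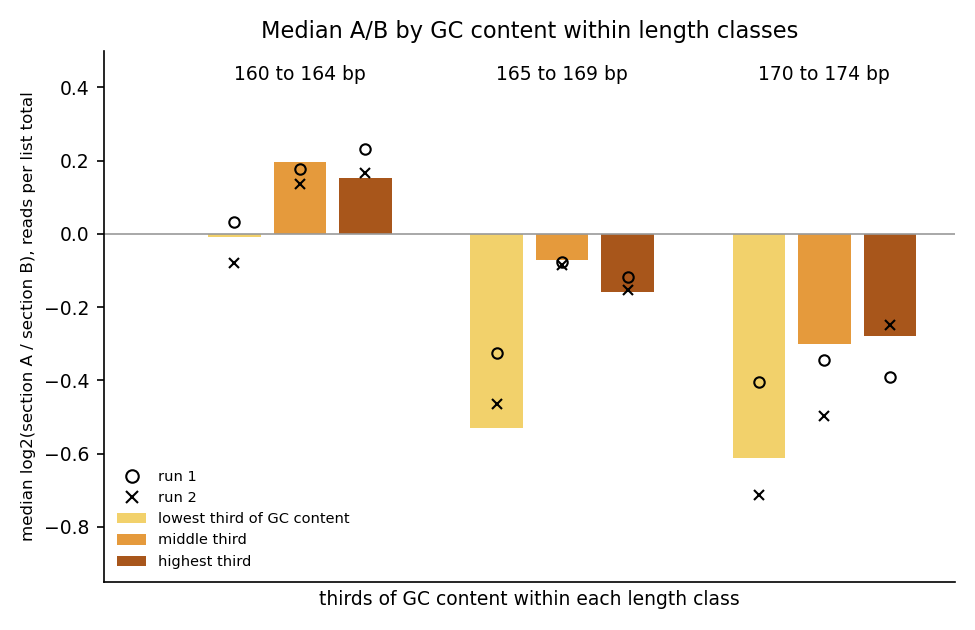
Median log2 A/B (y axis, reads as a share of list totals) of long fragments in 3 groups of GC content of equal size (x axis) within each of 3 length classes. Bars start at 0 and give the runs summed, circles run 1 and crosses run 2. In each class the GC-poor group is lowest with the runs summed, at −0.01, −0.53 and −0.61.

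With all long fragments included, the GC-rich group had the most calls in each direction. Called for section A were 8, 29 and 48 of the 260 fragments in the GC-poor, middle and GC-rich groups, and called for section B were 49, 33 and 60. The groups were also formed anew without minor fragments, which are defined below. Called for section B were then 44, 30 and 48, so that the GC-poor and GC-rich groups were close. Called for section A were then 8, 27 and 50. Read number moved with GC content, with a Spearman's correlation of 0.26 for the reads of both sections and 0.12 for NucLib reads, and the called fragments had a median of 195 reads, against 96 for the others. The part of read number in these counts was not tested. Spearman's correlation of log2 A/B with the number of bases in runs of A or T was −0.10 in long and −0.10 in core-length fragments.

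A/B went with the number of bases beyond a core length more than with their composition. With 13 or 14 bases beyond a core length the median log2 A/B was 0.19 (n = 208). It was −0.02 with 15 to 19 bases (n = 307), −0.32 with 20 to 24 (n = 146), −0.47 with 25 to 29 (n = 60) and −0.60 with 30 or more (n = 59). Linker length and insert length are the same measure here, so that they cannot be told apart. In the study, adding linker DNA to a single nucleosome left its ∆Lk nearly unchanged and slowed its circles in the gel. Slower circles stay nearer the upper section A. The study also states that circles with inserts of unequal length give bands out of phase, so that their partition need not reflect their mean Lk. A/B across lengths was not read as ∆Lk here, and the cause of its lower values at greater length was not tested. Spearman's correlation of log2 A/B with the GC content of the outer bases was −0.07 (−0.05 in run 1 and −0.06 in run 2). At 20 to 24 bases, members with GC-poor outer bases had a median of −0.17 (n = 70) and those with GC-rich ones −0.43 (n = 76), whereas at 25 to 29 bases both groups were close, at −0.48 and −0.46.

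In the nested cases the longer fragment had the lower A/B in 8 of 9. The median difference, long minus inner, was −0.60 (−0.58 in run 1 and −0.55 in run 2), and the longer fragments had 20 to 40 additional bases. In 4 of the 9 the difference exceeded 2 counting standard errors, all 4 below 0, at NUP42, FAR10, GFA1 (−1.14 ± 0.38) and YLR162W (−0.86 ± 0.21). The longer YLR162W fragment occurs 3 times in the genome, and the difference there was −0.20 in run 1 and −1.45 in run 2. Among the 7 cases whose longer fragment occurs once, 3 exceeded 2 counting standard errors. The NUP42 fragment of 167 bp, which has 26 additional bases on its right, had 35 and 30 reads in section A and 40 and 37 in section B. The 141-bp fragment inside it had 1826 and 1491 reads in section A and 709 and 831 in section B, and the difference in log2 A/B was −1.35 ± 0.25 (counting SE). The FAR10 fragment of 169 bp, with 2 bases added on the left and 20 on the right, had 72 and 49 reads in section A and 97 and 102 in section B. Its inner fragment had 134 and 99 in section A and 88 and 89 in section B, a difference of −1.11 ± 0.22.

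The other 5 cases were within 2 counting standard errors. ARA2 (arabinose dehydrogenase) had 51 reads of the longer fragment in section A and 43 in section B, and the difference from the inner one was −0.13 ± 0.31, positive in run 1 and negative in run 2. FLO5 (a flocculin of the cell wall) gave −0.60 ± 0.56 from a longer fragment with 15 and 12 reads. A pair of long fragments next to YLR162W shared an inner partner. The less-read of the pair, at 0.03 ± 0.55, was the only case above 0. Keeping 1 case per partner left it out, and all 8 that remained were below 0 with a median of −0.73. When the minimum was lowered to 5 reads in each section, there were 61 cases with 25 partners and a median of −0.17, of which 36 were below 0 and 24 above. In 42 of those 61 at least 1 fragment was a minor one, as defined next.

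Some long fragments lay at an abundant insert, and most of these were shorter than it. A minor fragment had one end in common with another whose reads were at least 50-fold more numerous, and 38 of the 780 were minor. Their median log2 A/B was −1.03, against −0.06 for the other 742. Of the 38, edgeR called 20 higher in section B and 0 higher in section A (22 and 0 at an unadjusted p under 0.05, and 11 and 0 by DESeq2). Over all fragments tested, these shares were 21.3% and 24.3%. Of the 20 called, 13 lay around the SPT5 insert and 5 around the PRP22 insert, so they came from few places. Around the SPT5 insert, 19 minor fragments held 4.63% as many reads as the insert itself, and 18 of them had a lower A/B than it. A fragment 1 base shorter on the right had 3 and 8 reads in section A and 35 and 24 in section B, a log2 A/B of −2.54 beside −0.26 for the insert. A fragment 1 base shorter on the left had 21 and 20 in section A and 7 and 19 in section B, at 0.47. The longest, of 211 bp, had 10 and 5 reads in section A and 82 and 101 in section B, at −3.74 the lowest of all long fragments (adjusted p = 9.3e-18 by edgeR).

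The same was seen at other abundant inserts. All 6 minor fragments around the PRP22 insert, all 5 around ABZ1 and 3 of 4 around CWC21 had a lower A/B than the insert. Over these 4 places 32 of 34 were lower, with a median difference of −0.98. Core-length fragments had 112 minor ones, with a median of 0.11 against 0.63 for the others. Without minor fragments the long ones kept 85 calls for section A and had 122 for section B, and Spearman's correlation with GC content was 0.15 in place of 0.07.

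**Figure D5:**
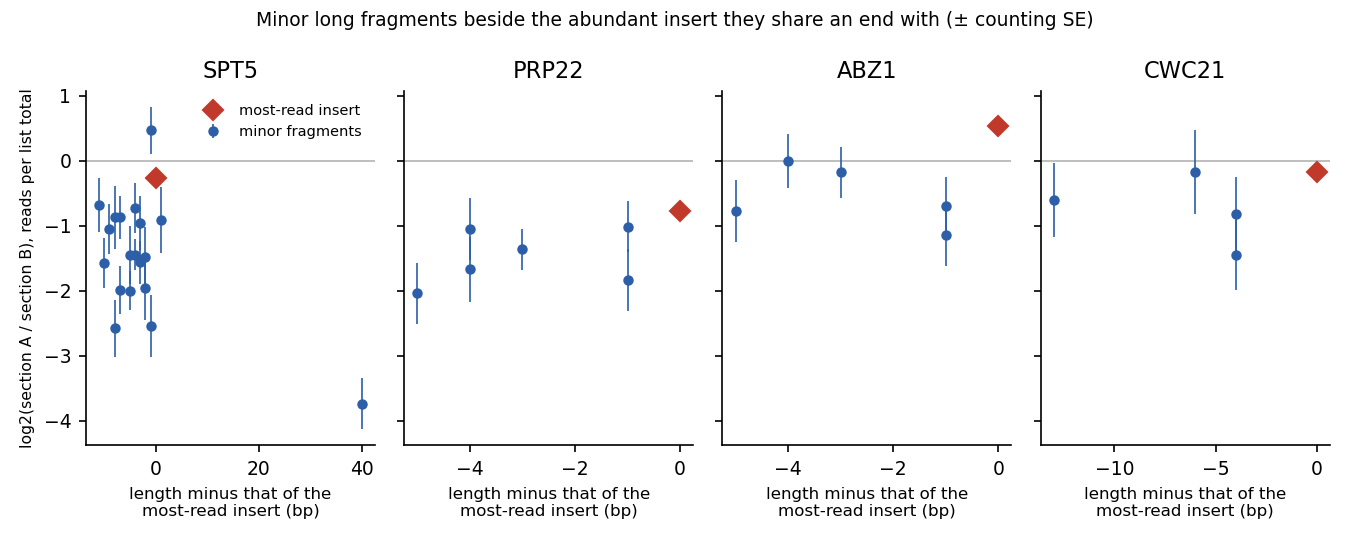
Log2 A/B (y axis, reads as a share of list totals) of long minor fragments against their length minus that of the most-read insert at the same place in bp (x axis), for 4 genes. Error bars are counting standard errors, diamonds are the abundant inserts, and 32 of the 34 minor fragments lie below the diamond of their panel.

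By position in the genome, long fragments came from 731 places that did not overlap by 50 bp, on all 16 chromosomes, and 715 of these held 1 fragment. Wholly inside coding sequence lay 555 (71.2%), with a median log2 A/B of −0.10 and with 66 fragments called higher in section A and 114 higher in B (against 24.3% and 21.3% of all fragments tested). The 66 fragments across a start codon had a median of −0.15, the 48 across a stop codon −0.21, and the 71 between genes −0.07. Core-length fragments of the same classes had 0.59, 0.57, 0.64 and 0.53, so long fragments were lower by 0.60 to 0.85 in each. No difference between these classes was tested. Ty elements and long terminal repeats held 39 long fragments (5%, against 13.6% of core-length ones), with a median of 0.10. Of the 46 long fragments whose sequence occurs more than once in the genome, 33 were of this kind and 4 had a copy in the rDNA.

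Within these classes single fragments reached both ends, most of them with few reads in the lesser section. Across start codons, PUT4 (proline permease) had 5 and 5 reads in section A and 31 and 28 in section B, a log2 A/B of −2.68, and was listed with 0 and 1 reads in NucLib. MIL1 had 63 and 61 in section A and 30 and 29 in section B, at 0.89. Across stop codons the values ran from −1.80 ± 0.52 (counting SE) for KCC4 (a septin-linked kinase gene) to 1.16 ± 0.49 for YGR266W. Between divergent genes, the place of shared promoters, they ran from −1.10 ± 0.36 to 1.33 ± 0.48. The lower value was between SUI1 and SLA2 and the upper between MIN4 and YAP1. Between tandem genes they ran from −1.94 ± 0.47 between ALG13 and RIM8 to 1.03 ± 0.52 beside YLR162W. The YLR162W fragment occurs 3 times in the genome and was not called (adjusted p = 0.094 by edgeR).

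Lists of genes by function held few long fragments, each counted where it overlapped a coding sequence or the 300 bp upstream of it. Shares called over all fragments tested were 24.3% for section A and 21.3% for section B, and with so few members the counts per list are given as values only. Ribosomal protein genes held 11, of which 3 were called higher in section B (RPL17B at −0.93, RPS7A at −0.87 and RPS11B at −0.46) and 0 higher in section A (4 and 0 at an unadjusted p under 0.05, and 2 and 0 by DESeq2), with a median of −0.26. These 3 fragments were 180, 176 and 168 bp long. Cell wall genes held 8, with 4 called for section B, from FLO11 (−1.85), TIR1 (−1.14), TIR3 (−0.86) and FLO5 (−0.63), and a median of −0.34. The called FLO11 fragment had 6 and 8 reads in section A and 23 and 23 in section B. A fragment 5 bp longer from the same start had 603 and 510 against 466 and 553 and was not called (−0.05), nor was a FLO5 fragment at 0.70. Chromatin remodeller and topoisomerase genes held 13, with 3 called in each direction and a median of 0.13. ISW1, a remodeller ATPase, gave a 164-bp fragment called for section A (0.86) and a 173-bp one called for section B (−0.72). SNF2 gave a 165-bp fragment called for section A (0.32) and a 160-bp one called for section B (−1.53). The 160-bp one had only 6 and 7 reads in section A and 11 and 23 in section B, and 0 and 0 in NucLib.

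The transporter list, which takes genes by name stem and so holds the regulator PDR1 too, had 10 fragments, with 1 called for section A (VMA13 of the vacuolar proton pump, 1.17). Cell cycle and replication genes also had 10, with POL1 called for section A. Of 5 translation factor fragments 1, upstream of SUI1, was called for section B, and of 3 chaperone fragments 1, beside KAR2 at the start codon of TAD2, for section A (0.49). The single histone gene fragment, 184 bp across the stop codon of HTA1, had 36 and 27 reads in section A and 40 and 57 in section B, at −0.79, and was called for section B (adjusted p = 0.0072 by edgeR). The single fragment at a glycolysis gene, beside PYK2, had 8 and 3 reads in section A and 2 and 12 in section B and was not called. Galactose and nitrogen catabolism genes held 2, with PUT4 called for section B and GAP1 (general amino acid permease, −0.02) not called. By DESeq2 the calls were 3 for section B in the cell wall list, 1 in each direction in the remodeller list and 0 in the histone, chaperone, translation factor and transporter lists. The core-length fragments of the same lists had medians from 0.39 to 1.02.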

How the data were processed

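Inserts were amplified by PCR from the adaptors in the library before the gel (NucLib) and in the DNA of gel sections A and B, and each of the 3 samples was sequenced in 2 flow-cell lanes (MiSeq, paired ends), which are the replicates of the labels. The authors trimmed reads with Cutadapt and aligned them to R64-1-1 with Bowtie 1.1.2, and their notes also name SAMtools, Picard and BWA. They deposited raw read counts per distinct fragment, 1 list per run, each ending at line 65536, so that fragments below a list's lowest counts were taken as 0. Totals were 851697 to 2073823 reads.

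Left out were fragments within 30 kb of a chromosome end and those overlapping XII 451000 to 469000 (rDNA), XV 480600 to 480850 (LPX1) and XII 1012500 to 1012760 (CAR2). Log2 A/B was computed from summed runs over list totals with 0.5 reads added. All 9277 fragments read 10 times or more in both sections were fitted with edgeR 4.0.16 (R 4.3.3, quasi-likelihood, list totals as library sizes, two-sided) and adjusted by Benjamini-Hochberg at 0.05. On simulated counts over these 9277 fragments, 40%, 54%, 88% and 98% of fragments changed 1.5-, 2-, 3- and 5-fold were called, and 0.0551% of unchanged ones. ∆Lk used the study's steps with its factor of 0.85, −0.007 per bp from 144 bp and a mean of −1.26. Sequence and annotation came from the R64 reference, and a core length was taken as 147 bp.

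The named fragments were the 10 highest and 10 lowest read 100 times or more in each section, an adjusted p under 0.05, the same side in both runs and no abundant insert at the same end, the 5 with most NucLib reads, the 3 longest, the nested cases with most reads and, per list and position class, the member at either end. The fragments, lists and tests were chosen with earlier results of these data known. Alternatives were TMM factors, totals without the left-out windows, DESeq2 1.42.0, no read filter, other minimums and length limits, all 6 libraries, a term for the run, each run left out, another pseudocount and subsets of the long fragments. Topo-seq was done once, and the p-values measure the spread between sequencing runs of one gel.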

Additional observations from a re-analysis of the deposited data

How the results depend on the processing

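The lower A/B of long than of core-length fragments and the lower A/B of longer fragments kept their direction under every alternative that was run. The sign of the median of long fragments, that of the correlation with the GC content of the outer bases and the direction with more calls did not, as the values show. The difference from core-length fragments (−0.69) was −0.61 with a minimum of 5 reads, −0.54 when the length limit was lowered by 5 bp, −1.11 when it was raised to 170 bp and −0.64 with a pseudocount of 5, and −0.71 to −0.67 with single runs left out. The median of long fragments (−0.09) was −0.20 with TMM, 0.12 with totals without the windows, −0.060 with a minimum of 20 reads, 0.00061 with 50, 0.058 with the lower length limit, −0.51 with 170 bp, −0.056 without minor fragments and −0.060 without the 5 places that hold 4 or more members, an alternative chosen after seeing the data, and −0.10 to −0.069 with single runs left out. Spearman's correlation of log2 A/B with length (−0.41) was −0.33, −0.47 and −0.55 with minimums of 5, 20 and 50 reads, −0.39 and −0.11 with the lower and higher length limits, −0.43 for sequences that occur once, and −0.40 to −0.38 without single runs. Spearman's correlation of log2 A/B with GC content (0.07) was 0.048, 0.13 and 0.13 with these minimums, 0.11 and 0.15 with the length limits, 0.15 without minor fragments and 0.15 without the 5 places, and 0.050 to 0.084 without single runs. Spearman's correlation of log2 A/B with the GC content of the outer bases (−0.07) was −0.010 and −0.037 with 20 and 50 reads, −0.041 and 0.0078 with the length limits and 0.00042 without minor fragments, and −0.074 to −0.044 without single runs. The median of the nested cases (−0.60, n = 9) was −0.17, −0.99 and −1.11 with minimums of 5, 20 and 50 reads (n = 61, 6 and 3), −0.34 and −0.34 with the length limits, −0.86 without minor fragments and −0.67 with a pseudocount of 5, and −0.66 to −0.44 without single runs.

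Calls for section A (85) were 166 with totals without the windows, 240 (beside 168 for section B) and 3 with the lower and higher length limits, 17 with DESeq2 and 63 to 81 without single runs. Calls for section B (142) were 84 with those totals, 69 with a minimum of 50 reads, 70 from 170 bp, 58 with DESeq2 and 99 to 121 without single runs. No call changed side under TMM, the other totals, DESeq2, all 6 libraries, the run as a block or no filter. DESeq2 gave no adjusted p for 1799 of the 9277 fragments. With the run as a replicate block, 90 fragments were called for section A (38.0% of the calls on long fragments, against 37.4% without it). Deviations of libraries with the same run number correlated at 0.06 over the fragments tested, so the block was not used as the pairing of the samples. Of the 20 fragments named at the upper and lower ends, all 20 kept their call with TMM, all 6 libraries and the block, 16 with DESeq2, and 19 without Topo-seq-B replicate 2. The counting error of a long fragment had a median of 0.28 on the log2 scale, and the causes of the shifts were not tested.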
